A study of Rattus norvegicus with 24 samples.

Results

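The 10 genes described here encode the core of the elastic fibre and the enzymes that cross-link it. They are elastin (Eln), fibrillin-1 (Fbn1), the fibulins Fbln1, Fbln2 and Fbln5, lysyl oxidase (Lox) and the lysyl oxidase-like genes Loxl1, Loxl2, Loxl3 and Loxl4. They were chosen by name, with earlier results of these data known, and all 10 were found among the 32883 genes of the table, each on 1 row. All 10 also passed the filter on low values that left 16287 genes for testing, although Loxl4 did so with a handful of reads.

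Elastic fibres let a tissue stretch and return to its shape. Cells secrete tropoelastin, the soluble form of elastin, and deposit it on a scaffold of fibrillin microfibrils with the help of fibulins. Lysyl oxidases, which need copper, then link the molecules to each other, and they do the same for collagens. In the urethra and the vaginal wall these fibres are part of the connective tissue that supports continence, and mice that lack Loxl1 or Fbln5 develop prolapse of the pelvic organs.

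Urethras came from 12-week-old female Sprague-Dawley rats that had all undergone simulated vaginal delivery (SVD), which combined crush of the pudendal nerve with distension of the vagina. After the injury the rats received saline, allogeneic mesoangioblasts (MABsallo) or allogeneic mesoangioblasts that overexpressed VEGF (MABsallo-VEGF) through the aorta. Mesoangioblasts are vessel-associated progenitor cells, here grown from the hind-limb muscle of another rat, and they carried a lentiviral luciferase and eGFP reporter. The VEGF cells also carried a lentiviral VEGF165 with a truncated CD34. Tissue was taken 3d or 7d after SVD from 4 rats in each of the 6 groups, and there was no uninjured group. The labels give the genotype as WT for the saline and MABsallo samples and as VEGF overexpression for the MABsallo-VEGF samples. Since the VEGF vector was put into the cells, the label VEGF overexpression is read here as naming the injected cells and not the rats. Labels name 2 of the 4 MABsallo-VEGF urethras of 7d as recovered.

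The measurement was a normalized gene count from 3′ mRNA libraries, in which each transcript gives reads from its 3′ end. Counts are therefore compared within a gene across samples and not between genes. Fbln1 has transcripts with different 3′ ends, which a count per gene does not separate. Libraries held 2170695 to 10166052 reads, with the lowest depths in MABsallo at 3d (2170695 to 4491900) and MABsallo-VEGF at 3d (3042531 to 4261098). Markers of urothelium, smooth muscle and skeletal muscle were present in each group, with at most 1 of the 7 epithelial markers at 0 in any library, but the summed level of those 7 was 1729 in saline replicate 8 and 1934 in MABsallo-VEGF replicate 2 at 3d, against 16546 or more in every MABsallo urethra of that day. Rows of mitochondrial rRNA and tRNA, a measure added after seeing the data, took 14.6% to 25.7% of the counts in MABsallo at 3d, 4.08% to 24.5% in MABsallo-VEGF at 3d, 0.674% to 8.31% in saline at 3d and at most 1.45% at 7d. Saline replicate 6 held the 8.31%, beside 0.674%, 1.65% and 2.61% in saline replicates 8, 9 and 10 of 3d. MABsallo-VEGF replicate 4 held the 4.08%, beside 18.1%, 24.5% and 20.5% in replicates 1 to 3 of that group. An alternative fit below leaves out both of these libraries. The part of these differences in the results below was not tested, except where a value without the libraries named is given.

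Elastin was counted in every urethra, with 379 reads or more, and it varied widely between rats of a group. At 3d the normalized counts of Eln were 18336, 7243, 8527 and 9582 in saline replicates 6, 8, 9 and 10. They were 2691, 44226, 9352 and 11712 in MABsallo replicates 1 to 4. In MABsallo-VEGF replicates 1 to 4 they were 4050, 43364, 4313 and 26769. The lowest and the highest elastin counts of the 24 urethras were thus both in MABsallo at 3d, 16.4-fold apart, and the saline range lay inside that of either cell-treated group. At 7d the counts ran from 5973 to 13454 in saline, from 8334 to 22091 in MABsallo and from 10106 to 36718 in MABsallo-VEGF. Group means stood in the order MABsallo-VEGF 3d (19624 ± 19075, SD, n = 4), MABsallo-VEGF 7d (19532 ± 12365), MABsallo 3d (16995 ± 18551), MABsallo 7d (14038 ± 6373), saline 3d (10922 ± 5034) and saline 7d (10347 ± 3324), and every pair of neighbours overlapped.

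Fibrillin-1, which forms the microfibril scaffold, varied in a similar way. Fbn1 counts at 3d were 13577, 10771, 5482 and 5458 in saline, 2932, 19367, 7062 and 11099 in MABsallo, and 5202, 22603, 4924 and 11065 in MABsallo-VEGF. The second replicate held the highest value in both cell-treated groups. At 7d the medians were 4870 in saline, 7008 in MABsallo and 8736 in MABsallo-VEGF, with ranges that overlapped (3585 to 7142, 3977 to 12629 and 2843 to 13495).

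The fibulins bind elastin and microfibrils, and Fbln1 had the largest fitted difference of any member between treatments. Fbln1, a fibulin found in elastic fibres and basement membranes, had counts of 5465, 13433, 13302 and 7992 in the 4 saline urethras of 3d. In MABsallo at 3d it had 632, 4678, 2566 and 3477, from 89 to 855 reads. In MABsallo-VEGF at 3d it had 2395, 4142, 1867 and 6968. Every MABsallo urethra of 3d lay below every saline urethra of that day, while the highest MABsallo-VEGF urethra overlapped the lowest saline one. At 7d the values were 8913, 11640, 4176 and 10333 in saline, 8153, 4874, 12708 and 10412 in MABsallo, and 6022, 2393, 9623 and 5671 in MABsallo-VEGF. The 3 groups overlapped at 7d.

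Fbln5, which tethers elastin to cells and binds lysyl oxidase-like 1, was counted at a lower number of reads. Its normalized counts at 3d were 761, 792, 625 and 457 in saline, 49.7, 525, 138 and 363 in MABsallo, and 124, 575, 161 and 1037 in MABsallo-VEGF. The lowest of these, in MABsallo replicate 1, rested on 7 reads, and MABsallo replicate 2 lay within the saline range. At 7d saline was tightly grouped at 409 to 490, inside the ranges of MABsallo (341 to 593) and MABsallo-VEGF (228 to 645). Fbln2, a fibulin of microfibrils and vessel walls, ranged from 851 to 2751 in saline, 178 to 2949 in MABsallo and 541 to 6342 in MABsallo-VEGF at 3d, and from 303 to 2092 over the 12 urethras of 7d.

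Lox, the founding member of the cross-linking enzymes, reached 12923 in saline replicate 6 at 3d, while the other saline urethras of that day had 4190, 3259 and 3143. MABsallo at 3d had 1044, 7703, 2797 and 4969, and MABsallo-VEGF at 3d had 1514, 14877, 3093 and 7454. The groups overlapped, and the highest values were those of saline replicate 6 and MABsallo-VEGF replicate 2. At 7d Lox lay between 1429 and 6816 in all 3 groups. Loxl1, the enzyme tied most closely to elastin, ranged from 1254 to 2038 in saline, 234 to 2068 in MABsallo and 487 to 2364 in MABsallo-VEGF at 3d, and from 799 to 2297 at 7d.

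Loxl2, which acts on collagen IV of basement membranes, had 2638 in saline replicate 6 and 835 to 1056 in the other 3 saline urethras of 3d. It ranged from 497 to 1521 in MABsallo and from 838 to 2359 in MABsallo-VEGF at that time. At 7d its mean was 699 ± 322 (SD, n = 4) in saline, 1173 ± 474 in MABsallo and 1207 ± 549 in MABsallo-VEGF. Those ranges overlapped, at 362 to 1013, 772 to 1859 and 577 to 1843.

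Loxl3 and Loxl4, the remaining lysyl oxidase-like enzymes, were barely counted. Loxl3 had 0 to 32 reads per library, with 0 reads in MABsallo replicate 1 at 3d. Loxl4 was at 0 in 17 of 24 urethras, and in 5 of the 6 groups no library exceeded 3 reads, the limit below which a gene was treated as not detected. Its highest count was 6 reads, or 50.01 on the normalized scale, in MABsallo-VEGF replicate 2 at 3d. No fold change of Loxl4 is given for that reason, and the depth of these libraries cannot show a difference for it.

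**Figure D1:**
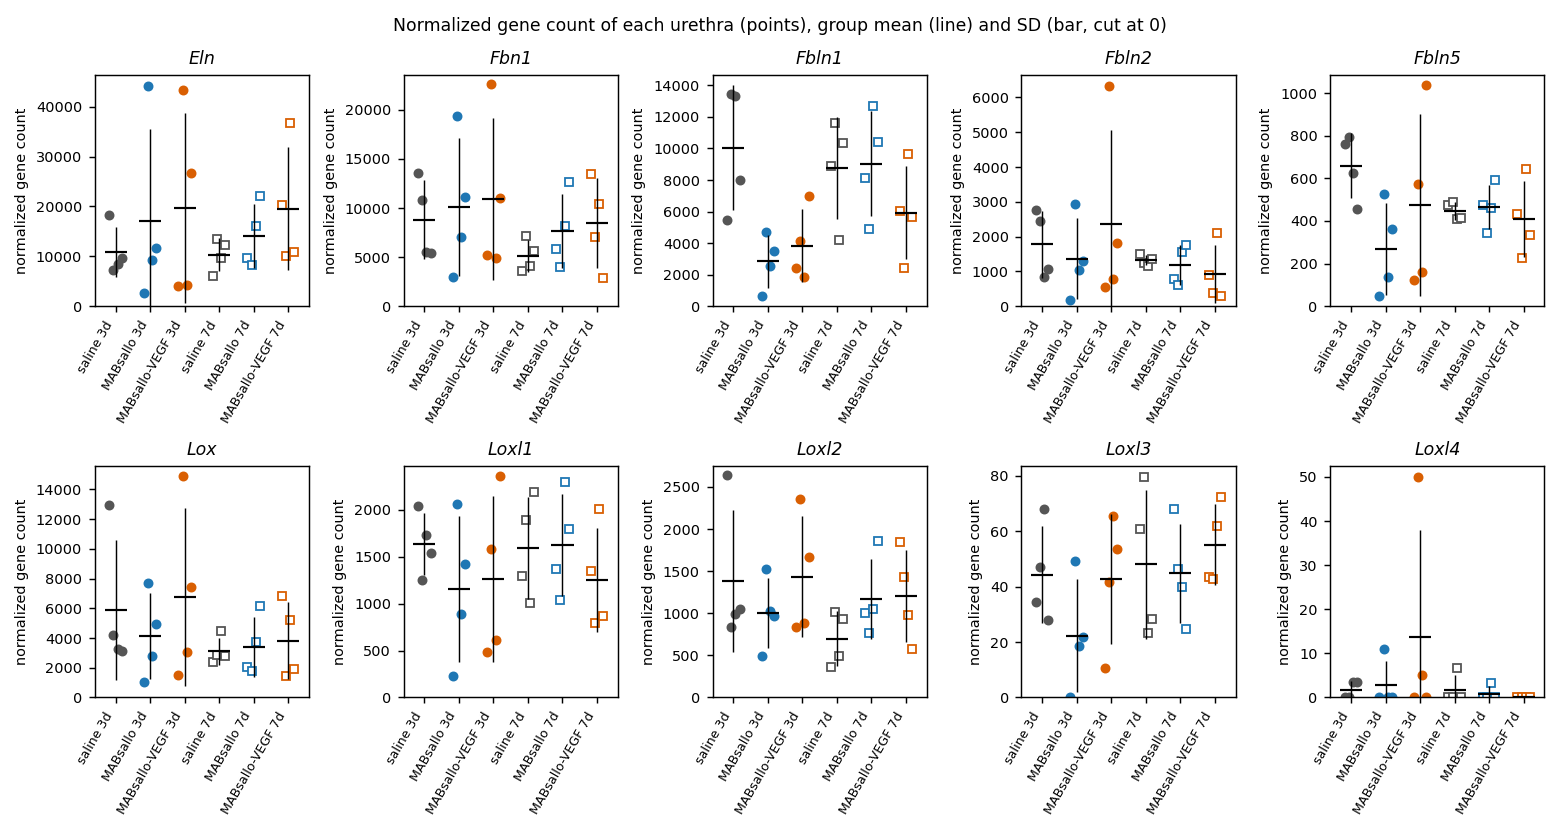
Normalized gene count (linear axis from 0) of the 10 genes in each of 24 urethras, by treatment and day, with 4 points per group, the group mean as a horizontal line and the SD as a vertical bar cut at 0. Fbln1 in MABsallo at 3d (632 to 4678) lies wholly below saline at 3d (5465 to 13433), whereas Eln spans 2691 to 44226 within MABsallo at 3d alone.

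The first question of the design was what the cells changed 3d after the injury. Fbln1 and Fbln5 were the 2 members called in MABsallo against saline at 3d, and both were lower. Mean Fbln1 was 2838 ± 1706 in MABsallo and 10048 ± 3970 in saline (SD, n = 4 each), which the fit expressed as a log2 fold change of -2.05 (SE 0.53, 95% interval -3.15 to -0.95, limma adjusted p = 0.0161). That is 4.15-fold lower. Mean Fbln5 was 269 ± 216 against 659 ± 152, a log2 fold change of -1.75 (SE 0.59, interval -2.97 to -0.53, limma adjusted p = 0.0465).

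These fits used log2(normalized count + 1), all 24 urethras in 6 groups, and Benjamini-Hochberg adjustment over 16287 genes, and a gene was called at an adjusted p below 0.05. The 2 of 10 members stand against 15.1% of all genes tested that were called in this comparison, 4.48% being lower. Only Fbln1 among the members had groups without overlap, which 14.7% of all genes had in either direction and 5.22% in the lower direction. The call of Fbln1 was lost without saline replicate 8 (log2 fold change -1.88, limma adjusted p = 0.0688), a fit that called 2.45% of all genes. It was lost without MABsallo replicate 1 (-1.44, limma adjusted p = 0.0701), where 5.03% were called, and when only the groups compared entered the fit (-2.05, limma adjusted p = 0.0723), where 0.0304% were called. It was also lost without saline replicate 8 and MABsallo-VEGF replicate 2 together, the 2 libraries lowest in epithelial markers (-1.88, limma adjusted p = 0.067), where 2.91% were called. That of Fbln5 was lost in 15 of the 24 fits that each left out a library, and without MABsallo replicate 1 its log2 fold change was -1.11 (limma adjusted p = 0.195). Of 12 other fits, 5 called Fbln5. It was lost with DESeq2 (-1.28, DESeq2 adjusted p = 0.0898), where 16% of all genes were called. With edgeR it was lost too (-1.36, edgeR adjusted p = 0.109), where 10.5% were called.

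The other members did not pass the test in this comparison as fitted above. Loxl3 had a log2 fold change of -1.82 (SE 0.84, limma adjusted p = 0.139) that rested on 0 to 19 reads per library. Under quantile normalization it was called (-2.35, limma adjusted p = 0.0441), beside 17.5% of all genes. Loxl1 had -0.87 (SE 0.52, limma adjusted p = 0.259), Fbln2 -0.78 (SE 0.74) and Lox -0.58 (SE 0.66). The 2 scaffold genes were centred near 0 with wide intervals. Eln had 0.07 (SE 0.71, interval -1.40 to 1.54) and Fbn1 0.01 (SE 0.55, interval -1.13 to 1.14). With such intervals, a doubling or a halving of elastin or fibrillin-1 could not be told from no change. The median log2 fold change was -0.78 over the 9 members without Loxl4, and 0.07 over all genes tested.

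None of the 10 members was called in MABsallo-VEGF against saline at 3d, where 0.0307% of all genes were called (5 genes, with 2923 at an unadjusted p below 0.05). That share depended on the fit, at 2.98% with DESeq2, 12.7% with sample quality weights and 16.4% without saline replicate 6 and MABsallo-VEGF replicate 4. This comparison shares its saline urethras with the one above. Fbln1 again had the lowest fitted value, a log2 fold change of -1.48 (SE 0.53, limma adjusted p = 0.152), from a mean of 3843 ± 2299 against 10048 ± 3970 (SD, n = 4 each). It passed the test without MABsallo-VEGF replicate 4 (-1.83, limma adjusted p = 0.0421), where 9.39% of all genes were called. It also did so without saline replicate 6 and MABsallo-VEGF replicate 4 (-2.09, limma adjusted p = 0.0181), so that 1 of 10 members stands beside 16.4% of all genes there. Fbln5 had -0.96 (SE 0.59, limma adjusted p = 0.406), and the values of the others ran from -0.65 for Loxl1 to 0.23 for Eln, with Loxl4 left out.

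The second question was whether VEGF changed the response to the cells, and no member was called in MABsallo-VEGF against MABsallo at 3d. Of all genes, 0.00614% were called (1 gene, with 999 at an unadjusted p below 0.05). The fitted values of the 9 members other than Loxl4 lay above 0, from 0.13 for Fbn1 to 1.59 for Loxl3, and their lowest adjusted p was 0.826 by limma. The median of these members was 0.55, against -0.03 over all genes tested. Members varied together within groups, as described below, so their signs are not independent of each other. For Fbln1 the difference was 0.57 (SE 0.53, interval -0.53 to 1.67), so that neither an equal level nor a 3-fold higher level in MABsallo-VEGF lay outside the interval.

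At 7d the 3 comparisons called no member and 0% of all genes by limma. At an unadjusted p below 0.05 there were 1014 genes in MABsallo against saline, 1033 in MABsallo-VEGF against saline and 452 in MABsallo-VEGF against MABsallo. DESeq2 called 1, 30 and 4 genes in the same order, and sample quality weights called 8, 196 and 3. None of these was a member, and edgeR called 0. Loxl2 came nearest to the threshold, with a log2 fold change of 0.79 against saline in MABsallo (SE 0.44, limma adjusted p = 0.84) and of 0.79 in MABsallo-VEGF (SE 0.44, limma adjusted p = 0.817), both set against the same saline urethras. Fbln1 stood at 0.06 (SE 0.53, interval -1.04 to 1.16) in MABsallo and at -0.63 (SE 0.53, interval -1.73 to 0.47) in MABsallo-VEGF.

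**Figure D2:**
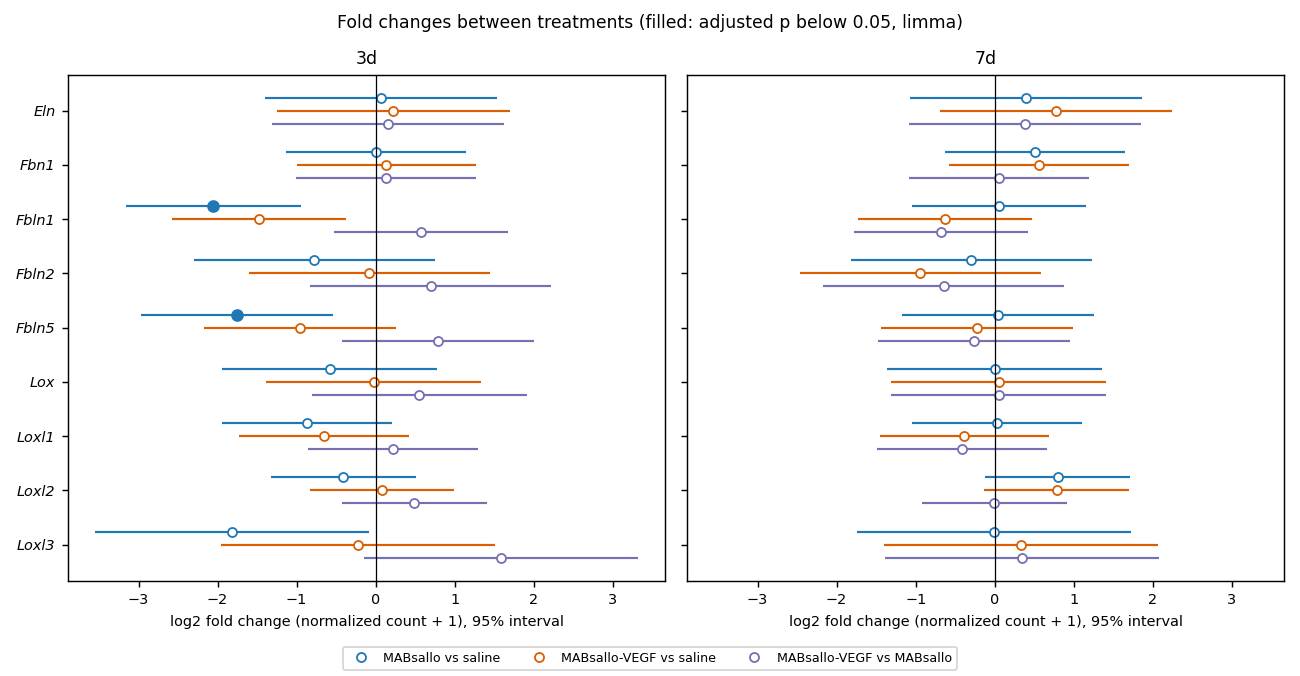
Log2 fold change of 9 genes between treatments at 3d (left) and 7d (right), with 95% intervals from the limma fit of 24 urethras, in 3 colours for the 3 comparisons of a day. The 2 filled points are Fbln1 (-2.05) and Fbln5 (-1.75) in MABsallo against saline at 3d, and all other points, open, had an adjusted p of 0.05 or more. Loxl4 is left out, since it had 6 reads or fewer per library.

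The third question was how the genes moved between 3d and 7d within a treatment. Fbln1 was lower at 3d than at 7d in MABsallo, with means of 2838 ± 1706 and 9037 ± 3341 (SD, n = 4 each), groups that did not overlap and a log2 fold change of -1.91 (SE 0.53, limma adjusted p = 0.00903), or 3.76-fold. It was the only member called there, while 30.5% of all genes were called (11.3% lower) and 27% had groups without overlap (9.33% lower). Without MABsallo replicate 1 of 3d the value was -1.30 (limma adjusted p = 0.0512). In saline no member was called, against 3.83% of all genes. That share depended on the fit, at 0.135% without saline replicate 6 of 3d and 19% with sample quality weights. It was 0% when only the groups compared entered the fit. Loxl2 had the largest fitted value in saline, 0.95 higher at 3d (SE 0.44, limma adjusted p = 0.249). Its count was 2638 in replicate 6 of 3d, beside 835 to 1056 in the other saline urethras of that day. Of the 9 members other than Loxl4, 8 had a fitted value above 0. The median was 0.26 over these 9 members and 0.05 over all genes tested, and the signs are again not independent. In MABsallo-VEGF no member was called, against 20% of all genes. Fbln1 had -0.65 (SE 0.53) and Fbln2 1.12 (SE 0.74).

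Whether the effect of the cells differed between the days was tested as an interaction. For Fbln1 the effect of MABsallo against saline was lower at 3d than at 7d by the fitted value (log2 difference -2.11, SE 0.75, unadjusted p = 0.0101, limma adjusted p = 0.248), which did not pass the test. No member passed it for MABsallo or for MABsallo-VEGF, and neither did any of the 16287 genes (0% called, while 2212 and 1341 genes had an unadjusted p below 0.05). Other fits called some genes, 602 and 601 without saline replicate 6 and MABsallo-VEGF replicate 4 of 3d, 391 and 418 with quality weights and 86 and 1 with DESeq2, but no member. A fall of Fbln1 particular to 3d was therefore not shown.

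Among the MABsallo-VEGF urethras of 7d, the 2 named as recovered were compared with the other 2 by their values alone, since groups of this size allow no useful test. Loxl2 was 1843 and 1432 in the recovered urethras against 978 and 577 in the others. Loxl3 was lower in the recovered, at 43.5 and 42.8 against 62.1 and 72.5. The other 8 members overlapped or were at 0, including Eln at 20358 and 10106 against 36718 and 10945. That 2 of 10 members did not overlap stands beside 32.3% of all genes tested.

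The members varied widely between rats of the same group. The SD of log2 values within groups was 1.13 for Eln, 1.18 for Fbln2 and 0.87 for Fbn1, and lowest for Loxl2 at 0.69. Its median was 0.44 over the 9773 genes with a mean normalized count of at least 100. Each of the 8 members at or above that level varied more than did at least 77.3% of those genes.

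They also varied together. Over the 24 urethras, the deviations of Fbln5 and Loxl1 from their group means had a Pearson r of 0.91 (Spearman rho 0.83), and those of Eln and Loxl1 an r of 0.90 (rho 0.91). Eln with Lox had 0.89 (rho 0.90). The scaffold, the adaptor and the cross-linking enzymes were thus high or low in the same rats. The median r over the 28 pairs of the 8 members counted with 7 reads or more in every library was 0.80 (rho 0.80), and 0.77 without the 2 urethras farthest from the median of the first gene of each pair. Fbln1 with Loxl2 was the least related of these pairs (r 0.33, rho 0.36). Fbln1 had an r of 0.85 with Loxl1 and 0.81 with Fbln5 but 0.53 with Lox and 0.59 with Fbn1. These correlations describe urethras that share a scaling and a makeup of cells, and they carry no test.

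**Figure D3:**
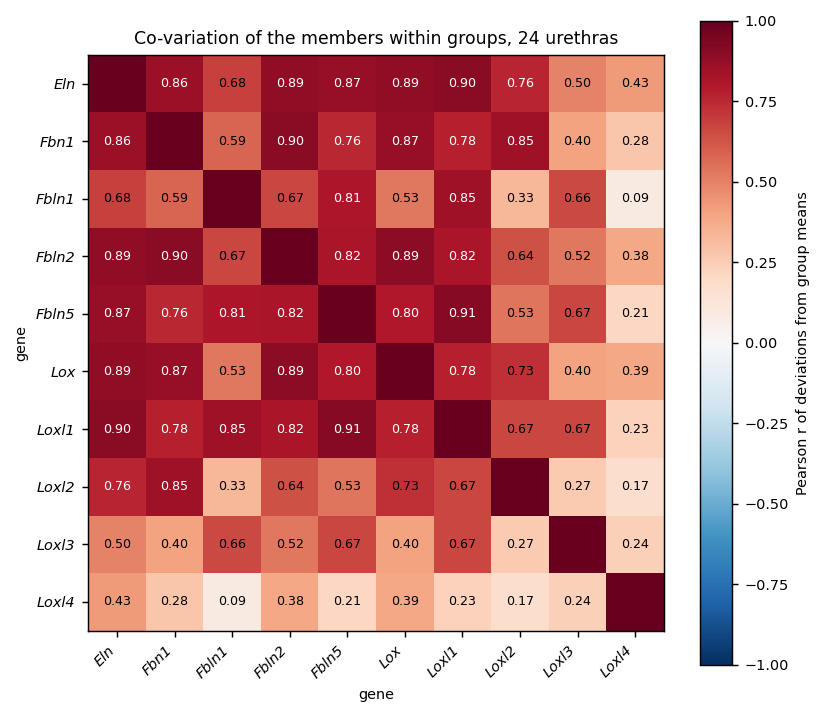
Pearson r between the deviations of each pair of genes from their group means, on log2(normalized count + 1), over 24 urethras, with red for positive and blue for negative values. Eln, Fbn1, Fbln2, Fbln5, Lox and Loxl1 form a block from 0.76 to 0.91, while Fbln1 with Loxl2 stands at 0.33 and the barely counted Loxl3 and Loxl4 are paler.

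By the closeness of log2 values over all 24 urethras, Eln was most like Fstl1 (r 0.82), Bcat1 (0.81), Fkbp11 (0.80), Fbn1 (0.80) and Lox (0.79) among 11168 genes with a mean count of at least 50. Lox was most like Fbln2 (0.87), Fbn1 (0.84), Fstl1 (0.84), Mns1 (0.84) and Sparc (0.83). Of the other members, Fbn1 was in both lists, Lox in that of Eln and Fbln2 in that of Lox, while Eln was not in that of Lox. Fstl1, a secreted glycoprotein of mesenchymal cells, stood in both lists.

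Fibroblasts are a main source of these proteins, and 6 fibroblast markers (Pdgfra, Dpt, Dcn, Lum, Col1a1, Pi16) moved with the members. Their summed normalized count was 264240 to 397901 in saline at 3d and 38944 to 213526 in MABsallo at 3d, without overlap, and 76997 to 428381 in MABsallo-VEGF at 3d. None of the 6 was at 0 in any group. Lum, the collagen-binding proteoglycan lumican, fell by 1.69 on the log2 scale (limma adjusted p = 0.0218) and Dcn, decorin, by 1.29 (limma adjusted p = 0.0426) in MABsallo against saline at 3d, while the other 4 were not called. In bulk tissue, fewer fibroblasts and less RNA per fibroblast cannot be told apart. Within groups, the mean log2 value of the 6 markers had an r of 0.74 to 0.85 with 7 members and 0.45 with Loxl2, whereas that of 6 smooth muscle markers had -0.19 to 0.28. Markers of other cell types moved with the members as well. Over the 8 members the within-group r was 0.51 to 0.85 for 5 macrophage markers, 0.44 to 0.68 for 5 adipocyte markers and 0.18 to 0.62 for 4 endothelial markers. In MABsallo against saline at 3d, 3 of the 5 macrophage markers fell, with sums of 660 to 6456 against 7572 to 16153. Of 5 mast cell markers 4 fell, with sums of 230 to 376 against 544 to 2003 and up to 3 of the 5 at 0 in a MABsallo library, while no adipocyte or Schwann cell marker was called (medians -1.42 and -1.75). Of all genes tested, 4.48% were called lower in this comparison. Other markers went the other way. Skeletal muscle markers were higher in 5 of 5 (median 1.30, 1 called) and epithelial markers in 6 of 7 (median 0.81, 0 called). The part of these cell types in the members' values was not tested.

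With the fibroblast marker level as a covariate, an alternative chosen after seeing the data, the log2 fold change of Fbln1 in MABsallo against saline at 3d was -0.88 (SE 0.37, limma adjusted p = 0.203) and that of Fbln5 was -0.42 (SE 0.39, limma adjusted p = 0.581). Neither was called, and nor was any other of the 16287 genes in this fit (3119 had an unadjusted p below 0.05), so the losses are not particular to the members. Set against the mean log2 value of the markers in the same urethra, Fbln1 stood at -0.74 to 0.16 in saline, -1.91 to -0.74 in MABsallo and -1.44 to -0.72 in MABsallo-VEGF at 3d. MABsallo urethras were below the lowest saline one on this measure, and the lowest saline value was close to the highest of either cell-treated group. Eln on the same measure was -0.96 to 1.01 in saline and 0.18 to 2.10 in MABsallo, with medians of -0.32 and 0.83. In MABsallo at 3d against 7d the call of Fbln1 was not lost with the covariate (-1.24, SE 0.34, limma adjusted p = 0.0093), in a fit that called 26.1% of all genes. Markers of other cell types also differed between these days. Called lower at 3d were 5 of 5 adipocyte, 4 of 5 mast cell, 3 of 6 smooth muscle and 2 of 5 macrophage markers. They stand beside 11.3% of all genes called lower. Their part in the value of Fbln1 was not tested.

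The level of Fbln1 against other members of the same urethra does not depend on the scaling of the libraries. The log2 difference of Fbln1 minus Fbn1 was -1.31 to 1.28 in saline at 3d and -2.21 to -1.46 in MABsallo at 3d, which did not overlap, and -2.45 to -0.67 in MABsallo-VEGF at 3d. Fbln1 minus Eln was -1.75 to 0.89 in saline and -3.24 to -1.75 in MABsallo, with the closest urethras almost equal. Fbln1 minus Loxl1 was 1.42 to 3.42 in saline and 1.18 to 1.53 in MABsallo, which overlapped. Fbln1 minus Fbln5, in contrast, was 2.84 to 4.41 in saline and 3.15 to 4.20 in MABsallo. These pairs were chosen after their values were seen and are a description, and the share of other gene pairs without overlap was not computed.

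**Figure D4:**
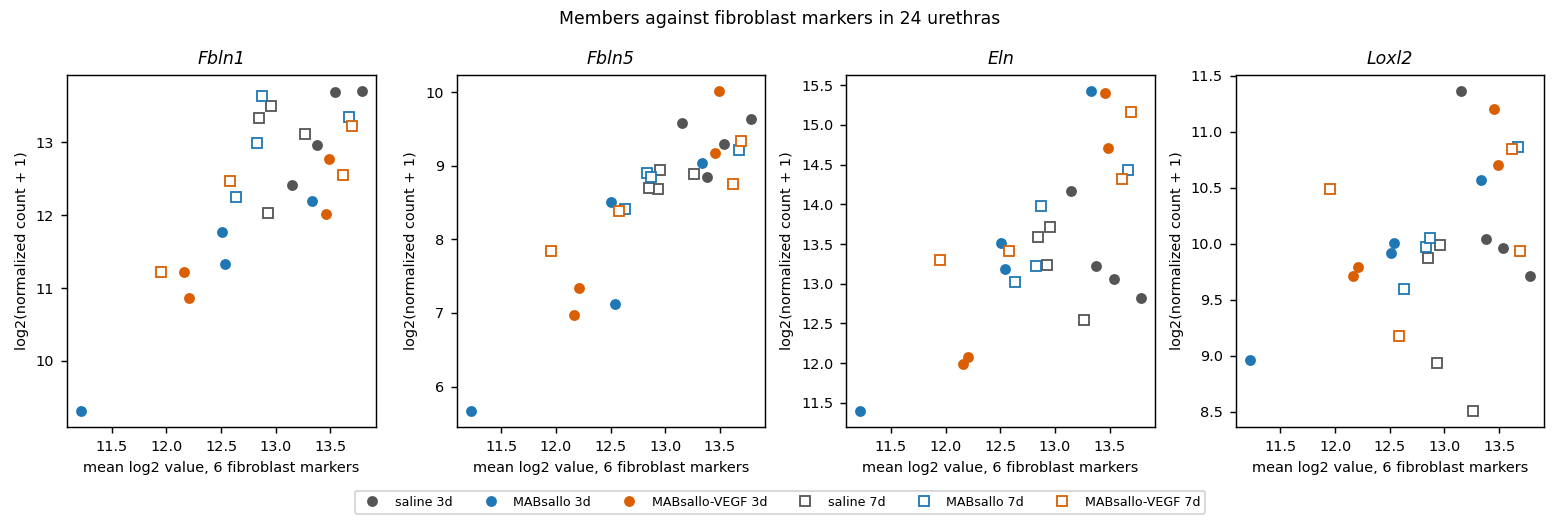
Log2(normalized count + 1) of Fbln1, Fbln5, Eln and Loxl2 against the mean log2 value of 6 fibroblast markers in 24 urethras, with filled circles for 3d, open squares for 7d and colours for treatment. MABsallo replicate 1 of 3d lies at the lower left for Fbln1, Fbln5 and Eln, and the relation is loosest for Loxl2 (within-group r 0.45).

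Other genes of elastic fibres and microfibrils moved in both directions in MABsallo against saline at 3d. Of 17 tested, 4 fell and 2 rose, with a median log2 fold change of -0.56 (0.07 over all genes). Over this list and the 3 that follow, 9 of 49 genes fell and 5 rose, beside 4.48% of all genes that were called lower and 1737 of 16287, or 10.7%, called higher. With the fibroblast covariate none of them was called, and a fit of only the groups compared called 5 genes among all tested. Efemp2, or fibulin-4, which is needed for elastin assembly and brings lysyl oxidase to it, fell by 1.33 on the log2 scale (SE 0.36, limma adjusted p = 0.0191). Ltbp4, which binds TGF-beta and helps elastin deposition with fibulin-5, fell by 1.62 (SE 0.49, limma adjusted p = 0.0296). Emilin2, an elastin microfibril interface protein, rose by 5.08 (SE 1.52, limma adjusted p = 0.0288) from 19.8 ± 37.3 in saline to 232 ± 209 in MABsallo (SD, n = 4 each). The SD exceeded the mean in saline, and the fold change is a difference of mean log2 values and not a ratio of these means.

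Among 9 tested genes that activate lysyl oxidases or bring them copper, 2 rose and 1 fell, with a median of -0.59. Pcolce, which enhances the proteinase that trims procollagen, fell by 2.22 (SE 0.47, limma adjusted p = 0.00718), from 9672 ± 3787 in saline to 2399 ± 1439 in MABsallo. Thbs1, thrombospondin-1, rose by 5.05 (SE 1.34, limma adjusted p = 0.0175), and Atp7a, the copper pump that loads lysyl oxidases, rose by 2.48 (SE 0.71, limma adjusted p = 0.0238). The counts of Thbs1 were 927 ± 827 in MABsallo and 201 ± 392 in saline, where the SD exceeded the mean. Its fold change is a difference of mean log2 values and not a ratio of these means. The counts of Atp7a were 349 ± 59.1 in MABsallo and 97.1 ± 74.4 in saline. Bmp1, the proteinase that releases active lysyl oxidase, had -0.59 (SE 0.23, limma adjusted p = 0.084).

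Of 17 tested elastases, their inhibitors and genes of elastin turnover, 4 fell and 0 rose, with a median of -0.68. Ctsk, the elastin-degrading cathepsin K, fell by 2.35 (SE 0.64, limma adjusted p = 0.0191), Mmp2, a gelatinase that also cuts elastin, by 1.70 (SE 0.53, limma adjusted p = 0.0347) and Glb1, of which a splice variant is the elastin-binding protein, by 1.19 (SE 0.28, limma adjusted p = 0.012). Of 6 collagen chains that lysyl oxidases cross-link, Col4a2 rose by 2.85 (SE 0.75, limma adjusted p = 0.0174) and 0 fell, with a median of -0.38. Col1a1 had -1.85 (SE 0.67, limma adjusted p = 0.0626).

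None of the 49 genes of these 4 lists was called in MABsallo-VEGF against saline or against MABsallo at 3d, or in any comparison at 7d. Between 3d and 7d in MABsallo, 12 were lower at 3d and 7 higher, beside 30.5% of all genes called. Slpi, an inhibitor of neutrophil elastase, was lower at 3d (log2 fold change -3.51, SE 0.70, limma adjusted p = 0.000742), and Pcolce (-1.55, SE 0.47, limma adjusted p = 0.0144) and Efemp1, or fibulin-3 (-1.30, SE 0.37, limma adjusted p = 0.0101), were also lower at 3d. Hmcn1, a large matrix protein of the fibulin family, was higher at 3d by 2.32 in MABsallo (SE 0.55, limma adjusted p = 0.00296). Higher there too were Emilin2 by 5.42 (SE 1.52, limma adjusted p = 0.00915) and Col4a2 by 3.76 (SE 0.75, limma adjusted p = 0.000797). Mmp14, a membrane-bound metalloproteinase that activates Mmp2, was higher by 1.54 (SE 0.49, limma adjusted p = 0.0197). Neu1, of the elastin turnover list, was lower at 3d (-1.22, SE 0.34, limma adjusted p = 0.00934).

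In MABsallo-VEGF, 2 were lower at 3d than at 7d and 6 higher, beside 20% of all genes. Ltbp4 was lower (-1.89, SE 0.49, limma adjusted p = 0.00855). Hmcn1 was higher by 2.32 (SE 0.55, limma adjusted p = 0.00471) and Fbn2, the fibrillin of growing tissue, by 4.58 (SE 1.24, limma adjusted p = 0.0116), with means of 340 ± 483 at 3d and 11.5 ± 12.9 at 7d. Thbs1 and Atp7a were called higher at 3d than at 7d in both cell-treated groups. Slc31a1, of the same list, was called lower at 3d in MABsallo (-1.29, SE 0.36, limma adjusted p = 0.00816). In MABsallo 2 genes of that list were thus called higher and 2 lower. Of the collagen chains, Col4a2 was higher at 3d in MABsallo-VEGF by 3.56 (SE 0.75, limma adjusted p = 0.00196). Col5a2 was higher there by 1.31 (SE 0.44, limma adjusted p = 0.0369). In saline, where 3.83% of all genes were called, 1 of the 49 genes was called. It was Mmp14, which was also called in MABsallo, here 2.05 higher at 3d (SE 0.49, limma adjusted p = 0.0236). When only the groups compared entered the fit, 0 genes were called in saline.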

How the data were processed

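RNA from 24 rat urethras, 4 per group, was sequenced by the authors as QuantSeq 3′ mRNA libraries. Alignment by the authors was with HISAT2 to Rnor6.0. They left out reads that mapped to several loci, obtained gene counts with HTSeq and scaled them by DESeq2 size factors, so the deposited signal is a normalized gene count. In every sample 100% of values were whole multiples of 1 read within 0.001 read, and reads were recovered from them. No positions are given, since no annotation of this build was used.

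Values were tested as log2(normalized count + 1) with limma 3.58.1 in R 4.3.3 (two-sided, eBayes with a trend), for genes with a mean of at least 2, in 1 fit of the 6 groups. Tests were run on simulated counts with independent genes and the same dispersion for every gene. That leaves out the wide and shared variation of these urethras, so it checks the code and not the calls made here. Named genes were the 10 members, the 5 genes most like Eln and Lox, and the called genes of the 4 lists. For each list and comparison these were at most the 3 with the lowest p. Markers of cell types were mostly given as counts. Bmp1, Col1a1, Pcolce between days and the pairs of Fbln1 with other members were added after their values were seen. The members and the lists were chosen with earlier results of these data known. Alternatives were an added count of 5, no filter or a mean of at least 10, total and quantile scaling, edgeR 4.0.16 and DESeq2 1.42.0 on the recovered reads, quality weights per sample, fits to the compared groups alone or to 22 samples without saline replicate 6 and MABsallo-VEGF replicate 4 of 3d, the replicate block and each sample left out. The fibroblast covariate and the fit without the 2 libraries lowest in epithelial markers were chosen after seeing the data. Replicates differed by more than counting error (chi-square per degree of freedom 9.00 to 121 over 36 pairs). Limits of 3 reads cover counting error only.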

Additional observations from a re-analysis of the deposited data

Results flagged for a closer look

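In 3 of the 55 groups of values tested, a single urethra stood far from the other 3 of its group, as about 1 in 20 groups would by chance. Lox in saline replicate 6 at 3d was 12920, while the other 3 ranged from 3143 to 4190. Loxl2 in the same urethra was 2638, while the others ranged from 835 to 1056. Loxl4 in MABsallo-VEGF replicate 2 at 3d was 50.01, from 6 reads, while the others ranged from 0 to 5.04.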

How the results depend on the processing

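In MABsallo against saline at 3d, 2 members were called. There were 3 with quantile normalization (Loxl3 added), and 1 (Fbln1, with Fbln5 lost) was called without the filter, with edgeR, with DESeq2 and with sample quality weights. There were 0 when only the groups compared entered the fit, without the 2 libraries lowest in epithelial markers and with the fibroblast covariate. Leaving out each library gave 0 to 2. In MABsallo-VEGF against saline at 3d, 0 members became 1 (Fbln1) with quality weights and without saline replicate 6 and MABsallo-VEGF replicate 4, fits in which 5 genes of the table became 2072 and 2670, and 0 to 1 when a library was left out. In MABsallo at 3d against 7d, 1 member became 2 with quantile normalization and 0 to 3 when a library was left out, with 0 without MABsallo replicate 1 and 3 (Fbln1, Fbln5, Loxl3) without replicate 2. In MABsallo-VEGF at 3d against 7d, 0 became 1 with the fibroblast covariate (Fbln2, 1.33, limma adjusted p = 0.0282). The cause was not tested. The other comparisons stayed at 0 under every alternative run. Over 3931 recomputed member values, 0 called values changed sign, 8 calls were gained and 28 lost. Scaling to the same total moved the median of all genes in MABsallo against saline at 3d by -0.25, and relative to that shift Fbln1 (-2.33) differed little from -2.05. Over all genes, limma called 2466 there, DESeq2 2612 and edgeR 1717, but limma called 472 without the 2 libraries lowest in epithelial markers, 5 on the groups compared and 0 with the fibroblast covariate. Same-numbered MABsallo and MABsallo-VEGF urethras of 3d correlated at 0.090 to 0.41, and 2 of 4 best with their own number, so the numbers were not taken as pairs. With the replicate block, 0 members were called in that comparison. Fbln5 and the low counts of Loxl3 and Loxl4 are the values that depth limits most.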
